A study of Mus musculus with 6 samples.

Results

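Satellite cells are the stem cells of skeletal muscle, and this account follows 10 genes that mark them and the myoblasts they give rise to: Pax7, Chodl, Calcr, Megf10, Sdc4, Myf5, Myod1, Myog, Cdh15 and Musk. The genes were chosen by name, all 10 were found, and they are 10 of the 32179 genes listed. They were read in bulk RNA of vascular smooth muscle cells (SMC), sorted out of muscle that came from C57BL6J males, 8 to 24 weeks old. There were 3 libraries of the iSM-G5C-KO genotype, in which the orphan receptor gene Gprc5c is targeted in smooth muscle after tamoxifen. The 3 control libraries also came from tamoxifen-induced mice. Both groups carried the mTmG reporter, which marks cells with EGFP once Cre has recombined, and both have a Gprc5c-floxed source label, although controls are labelled wild type by genotype. The promoter that drives Cre, whether the controls carried Cre and whether each library is a different animal are not given in the sources used here. Cells positive for CD31, CD45 or Ter119 were depleted before live EGFP-positive cells were sorted, and these 3 antigens mark endothelial, blood and erythroid cells. The question the comparison addresses here is what level these muscle precursor transcripts had in the sorted cells, and whether it differed between KO and control libraries.

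In adult muscle a satellite cell lies beneath the basal lamina of a fibre and rests in quiescence under the transcription factor PAX7. After injury it enters the cell cycle and makes the myogenic regulatory factors MYF5 and MYOD1, basic helix-loop-helix proteins that bind E-boxes in DNA. Myogenin then accompanies exit from the cycle, and the cells fuse into fibres. Blood vessels of muscle lie close to satellite cells, but PAX7 and the myogenic regulatory factors are not among the markers of vascular SMC.

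Values are normalized counts, that is read counts divided by 1 factor per library and rounded. The worth of 1 read, estimated from the spacing of low values, was 0.831 to 1.399 in KO libraries and 0.755 to 1.327 in control libraries. The table held an estimated 1479598 to 2581454 reads in KO libraries and 1556750 to 2935114 in control libraries. Control library 3 listed 29707 genes above 0 against 20481 to 21179 in the other 5, and 7733 of its genes stood at a value of 1; 0 of the 10 members stood at 1 there. The targeted gene Gprc5c was at 328, 305 and 360 in KO libraries 1, 2 and 3, and at 428, 532 and 497 in control libraries 1, 2 and 3, so every KO library was lower and the KO mean was 68.2% of the control mean. Its log2 fold change was -0.55 (SE 0.13, unadjusted p = 0.0032 and adjusted p = 0.999 with limma). The transcript was thus lower and not absent, and the targeted gene itself did not pass the test used for the members. All 10 smooth muscle markers listed were read in every library and summed to 12275 to 14596 in KO libraries and 14285 to 14641 in control libraries.

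The promoters of the members whose library patterns are described below are shown first, with every E-box, CANNTG, in capitals, since the myogenic regulatory factors bind this motif. Myog is shown as the member with 1 library far above the rest, and Pax7 and Chodl as the 2 members with the most reads after Sdc4. Sequences are from RefSeq on GRCm38.p6, from 250 bases before to 50 bases after the annotated start, 5′ to 3′ on the gene's strand. They come from chr1:134289754-134290053 (plus strand) for Myog, chr4:139832919-139833218 (minus strand) for Pax7 and chr16:78930698-78930997 (plus strand) for Chodl.
Myog: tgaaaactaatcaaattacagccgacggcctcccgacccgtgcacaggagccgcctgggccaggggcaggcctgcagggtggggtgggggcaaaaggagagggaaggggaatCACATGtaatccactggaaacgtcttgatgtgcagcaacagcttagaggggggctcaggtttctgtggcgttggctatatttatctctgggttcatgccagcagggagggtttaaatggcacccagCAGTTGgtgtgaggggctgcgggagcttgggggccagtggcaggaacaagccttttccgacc
Pax7: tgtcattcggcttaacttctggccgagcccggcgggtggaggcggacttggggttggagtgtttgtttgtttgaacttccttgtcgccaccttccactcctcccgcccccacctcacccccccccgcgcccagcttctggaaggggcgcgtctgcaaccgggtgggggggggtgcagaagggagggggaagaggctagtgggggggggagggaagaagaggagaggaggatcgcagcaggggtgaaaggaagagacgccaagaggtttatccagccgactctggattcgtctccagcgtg
Chodl: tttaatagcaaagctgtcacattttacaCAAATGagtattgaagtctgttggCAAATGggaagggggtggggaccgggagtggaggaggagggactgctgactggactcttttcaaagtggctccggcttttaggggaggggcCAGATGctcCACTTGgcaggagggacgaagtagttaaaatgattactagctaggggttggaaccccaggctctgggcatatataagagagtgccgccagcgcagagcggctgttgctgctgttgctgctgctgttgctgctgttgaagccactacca
The Myog window held 2 E-boxes, CACATG beginning 138 bases and CAGTTG beginning 12 bases before the start. It also held the letters CTANNNNTA, a short form of the motif bound by MEF2 factors, beginning 64 bases before the start. The Chodl window held 4 E-boxes and the Pax7 window 0, and the Pax7 window lies inside the span that the deposited table gives for the gene. Promoters were matched for 8 of 10 members, and Myod1 and Megf10 are named only. The windows of Cdh15 and Musk held 4 and 3 E-boxes, and those of Sdc4 and Myf5 held 0. Of the 2 Calcr windows 1 held a single E-box. The letters CTANNNNTA also occurred in that Calcr window and, with 2 matches, in the Myf5 window. Searched on both strands, 72.3% of 32851 promoter windows of this length held at least 1 E-box and 39.6% at least 2. At least 3 were held by 17.6% and at least 4 by 6.5%, and 21.0% held CTANNNNTA. A match is a description of these letters and not of binding.

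Sdc4 stood far above the other members. It encodes syndecan-4, a heparan sulphate proteoglycan of focal adhesions that is used as a surface marker of satellite cells and is also made by many adherent cells. It lies on the minus strand of chromosome 2 from 164424247 to 164443186 (GRCm38). Per kilobase (kb) of exon, taken from GENCODE vM21, its level averaged 109.1 ± 50.05 normalized counts in KO libraries and 132.7 ± 40.5 in control libraries (SD, n = 3 each). The other 9 members had group means of 1.61 to 8.499 normalized counts per kb in KO libraries and 2.30 to 6.74 in control libraries. For scale, the smooth muscle myosin gene Myh11 was at 571.2 per kb in KO libraries and 598.4 in control libraries. Within the 9, the highest mean over all libraries belonged to Chodl, followed by Pax7, Cdh15, Myog, Myf5, Musk, Megf10, Myod1 and Calcr. Neighbours in that order were not separated beyond their spread between libraries, as the SDs reached 3.14 per kb for Chodl and 9.23 for Myog.

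**Figure D1:**
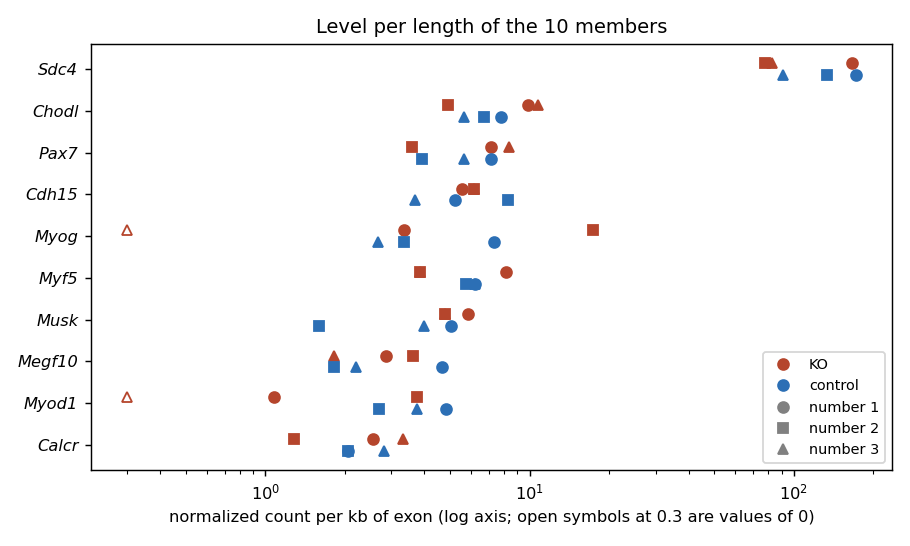
Level of each member per kb of exon in every library, on a log axis, with KO libraries in red above control libraries in blue and symbols for the replicate number. Sdc4 lies apart from the other 9, and the open symbols are the values of 0 of Myod1 and Myog in KO library 3.

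Of the 10 members, 7 had a mean of at least 10 over all libraries and were tested with limma; Calcr, Myog and Myod1 were below it and are given by value. None of the 7 passed: 0 members had an adjusted p under 0.05 and 0 had an unadjusted p under 0.05. Over all 12735 tested genes 0 passed as well (0%), and 230 (1.81%) had an unadjusted p under 0.05. The KO and control libraries overlapped in each of the 10 members, while the groups did not overlap in 4.91% of tested genes. By sign, 5 of the 7 were higher and 2 lower in KO on the log2 scale, and their median was 0.12, against 50.2% higher, 49.8% lower and a median of 0.0011 over all tested genes. With the replicate number as a block 0 members passed, against 1 tested gene (0.00785%), and 1 member, Sdc4, had an unadjusted p under 0.05 (adjusted p = 0.474 with limma), against 10.2% of tested genes, and 5.96% in the lower direction as in Sdc4. Within the replicate numbers, 2 of the 7, Musk and Sdc4, went the same way in 3 of 3, as did 29.4% of tested genes. The 95% intervals of the 7 fold changes ran from -1.21 at the lowest (Myf5) to 1.65 at the highest (Musk). For each gene, differences within its own interval were not excluded. Here and below, fewer cells of a type and less RNA per cell cannot be told apart, because the samples are bulk.

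**Figure D2:**
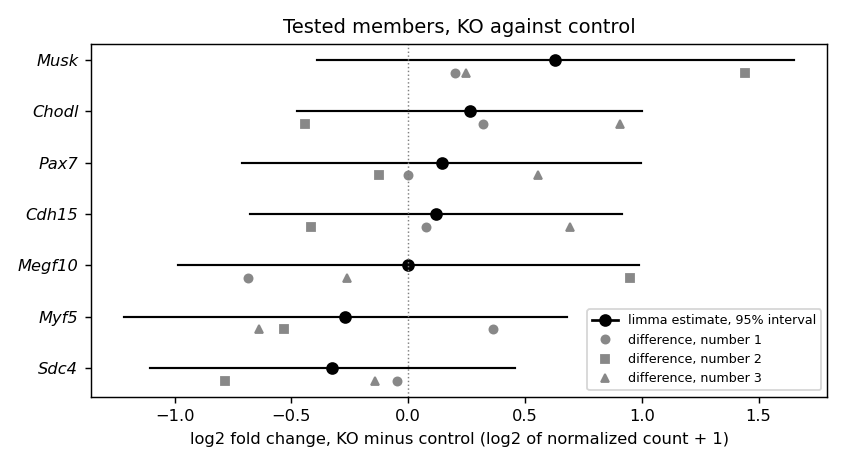
Log2 fold changes, KO minus control, of the 7 tested members, with black points and bars for limma's estimate and 95% interval and grey symbols for the difference between libraries of the same replicate number. Each interval includes 0, and the 3 grey symbols lie on the same side of 0 for Musk and Sdc4 only.

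Among the markers of quiescent satellite cells, Pax7 and Chodl were read in every library. Pax7, the paired-box transcription factor that defines the lineage (chromosome 4, 139737062 to 139833528, minus strand), was at 42, 21 and 49 in KO libraries 1, 2 and 3 and at 42, 23 and 33 in control libraries 1, 2 and 3. In both groups library 2 was the lowest, and the 2 groups overlapped. The means were 37.3 ± 14.6 in KO and 32.7 ± 9.504 in control libraries (SD, n = 3 each), and the log2 fold change was 0.14 (SE 0.37, adjusted p = 0.999 with limma). Chodl, the gene of chondrolectin, a membrane lectin (chromosome 16, 78930948 to 78951733, plus strand), was at 54, 27 and 59 in KO libraries and at 43, 37 and 31 in control libraries. KO libraries 1 and 3 lay above all controls and KO library 2 below them, so the highest and the lowest value were both in the KO group. Leaving out 1 library moved its log2 fold change between 0.06 (without KO library 3) and 0.61 (without KO library 2). Its means were 46.7 ± 17.2 in KO and 37.0 ± 6.0 in control libraries (SD, n = 3 each), with a log2 fold change of 0.26 (SE 0.32, adjusted p = 0.999 with limma). Calcr, whose calcitonin receptor is present on quiescent satellite cells (chromosome 6, 3685680 to 3764714, minus strand), was at 10, 5 and 13 in KO and at 8, 8 and 11 in control libraries. It followed Pax7 and Chodl in having KO library 2 lowest and KO library 3 highest. Its mean of 9.17 kept it from the test, and its log2 difference without the filter, -0.02, was 0.33 without KO library 2.

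Pax7, Chodl and Calcr thus had the same order of KO libraries, with number 3 highest and number 2 lowest. The order was singled out after the values were seen, and its share over all genes was not counted. For each gene, the exact 95% Poisson intervals of KO libraries 3 and 1, which cover counting error only, overlapped. Those of Calcr were 5.76 to 23.9 in KO library 3, 5.15 to 17.4 in KO library 1 and 1.50 to 10.8 in KO library 2. In the same libraries the summed level of 10 leukocyte markers was 314, 101 and 497 in KO libraries 1, 2 and 3 and 420, 92 and 405 in control libraries, lowest in both libraries numbered 2. Of these 10 markers, 4 were at 0 in at least 1 library and 1, Cd3e, stayed at or under 5 in all, while Ptprc, the gene of CD45, was at 47, 8 and 43 in KO and 72, 1 and 23 in control libraries. Of Pax7, Chodl and Calcr, only Pax7 was lowest without a tie in both libraries numbered 2. Calcr was lowest there too, but among the controls its libraries 1 and 2 tied at 8. Chodl was lowest among the controls in library 3, at 31. The part of leukocyte content in the order of Pax7, Chodl and Calcr was not tested.

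Markers of activated satellite cells and of adhesion showed other orders. Megf10 (chromosome 18, 57133090 to 57297467, plus strand) encodes a receptor with EGF-like repeats that acts in myoblasts and in glial engulfment. It was at 22, 28 and 14 in KO libraries and 36, 14 and 17 in control libraries, so the controls spanned the whole KO range. Its log2 fold change was 0.00 (SE 0.42, adjusted p = 1 with limma). Cdh15 encodes M-cadherin, which joins satellite cells to their fibre (chromosome 8, 122847966 to 122867397, plus strand). It stood at 18, 20 and 20 in KO libraries against 17, 27 and 12 in control libraries. The KO libraries lay close together and inside the control range, with means of 19.3 ± 1.15 in KO and 18.7 ± 7.64 in control libraries (SD, n = 3 each). Its log2 fold change was 0.12 (SE 0.34, adjusted p = 0.999 with limma). A long read-through gene model of GENCODE vM21, Gm20388, overlaps Cdh15 on the same strand, so the count of Cdh15 is uncertain to the extent that shared reads were left unassigned. Beside it, only Calcr overlaps other gene models, which are the microRNA genes Mir489 and Mir653.

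Sdc4 was the tested member with the most reads, and it varied beyond counting. It was at 425, 198 and 211 in KO libraries 1, 2 and 3 and at 439, 342 and 233 in control libraries 1, 2 and 3. Library 1 was the highest in each group and the groups overlapped, while within each replicate number the KO library was the lower, by 0.05, 0.79 and 0.14 on the log2 scale for numbers 1, 2 and 3. The means were 278.0 ± 127.5 in KO and 338.0 ± 103.1 in control libraries (SD, n = 3 each). The log2 fold change was -0.32 (SE 0.34), and its 95% interval was -1.11 to 0.46 (adjusted p = 0.999 with limma). Among 8302 genes with a mean of at least 50, the 2 whose profile over the 6 libraries was most like that of Sdc4 were Ctnna3, for an alpha-catenin, and Mical3, for an actin-oxidizing enzyme family member. Their root-mean-square differences from it were 0.05 and 0.05 on the log2 scale. Ctnna3 was at 485, 204 and 225 in KO and at 482, 368 and 265 in control libraries.

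The other syndecans differed from Sdc4 and from each other. Sdc1 was at 189, 408 and 450 in KO and at 166, 301 and 321 in control libraries, lowest in both libraries numbered 1, where Sdc4 was highest, and higher in KO within 3 of 3 replicate numbers. Sdc2 was at 373, 316 and 335 in KO libraries, the same order as Sdc4, and at 346, 349 and 346 in control libraries. Sdc3, like Sdc4 a syndecan reported on satellite cells, was at 169, 177 and 134 in KO and 157, 132 and 162 in control libraries. Over the 4 syndecans, 2 had a higher and 2 a lower KO mean on the log2 scale and 0 passed limma's test. Their summed level was nearly constant, at 1099 to 1156 in KO and 1062 to 1124 in control libraries.

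The 3 myogenic regulatory factors among the members were read at few counts, with means of 5 to 11.8 over all libraries. Myf5, the factor of committed satellite cells and early myoblasts (chromosome 10, 107482908 to 107486134, minus strand), was at 17, 8 and 8 in KO libraries and 13, 12 and 13 in control libraries. KO library 1 lay above and KO libraries 2 and 3 below all controls. The log2 fold change was -0.27 (SE 0.41, adjusted p = 0.999 with limma). Myod1, which drives activated satellite cells towards muscle (chromosome 7, 46376474 to 46379099, plus strand), was at 2, 7 and 0 in KO libraries and 9, 5 and 7 in control libraries. With a mean of 5 it was not tested. The 0 in KO library 3 allows up to 4.2 normalized counts, the worth of 3 reads there (a 1-sided limit), and its 2-sided exact 95% Poisson interval reaches 5.16, both for counting error only. Without the filter on low values, Myod1 had a log2 fold change of -1.44 (SE 0.78, adjusted p = 0.799 with limma over 32179 genes). That value was -0.68 without KO library 3, -2.18 without KO library 2 and -0.67 with a pseudocount of 5. Myf6, the remaining factor of the family and a gene of mature fibres, was at 3, 3 and 1 in KO and at 1, 4 and 5 in control libraries.

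Myog was the member that set a single library apart. Myogenin, the factor of differentiating myoblasts (chromosome 1, 134289989 to 134292548, plus strand), was at 5, 26 and 0 in KO libraries 1, 2 and 3 and at 11, 5 and 4 in control libraries 1, 2 and 3. KO library 2 was 2.36 times the next highest library, and KO library 3 was at 0, with the same limits as for Myod1. The 26 normalized counts of KO library 2, where whole reads were not recovered, correspond to an estimated 28 reads, whose exact 95% Poisson interval is 17.2 to 37.4 normalized counts, against 5.78 to 18.7 for the 11 of control library 1. These intervals cover counting error only. The KO mean of 10.3 ± 13.8 was above the control mean of 6.67 ± 3.79 (SD, n = 3 each), while the log2 fold change without the filter was -0.38, so the 2 scales differ in sign. Leaving out KO library 2 gave -1.54 and leaving out KO library 3 gave 0.84. Musk, the receptor tyrosine kinase of the endplate (chromosome 4, 58285960 to 58374303, plus strand), was at 22, 18 and 18 in KO libraries and at 19, 6 and 15 in control libraries. Its lowest value was in control library 2. Its log2 fold change of 0.63 was the largest of the 7 (SE 0.44), with a 95% interval of -0.39 to 1.65 (adjusted p = 0.999 with limma). It was 0.18 without control library 2. The KO library was the higher within each replicate number, by 0.20, 1.44 and 0.25 on the log2 scale.

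**Figure D3:**
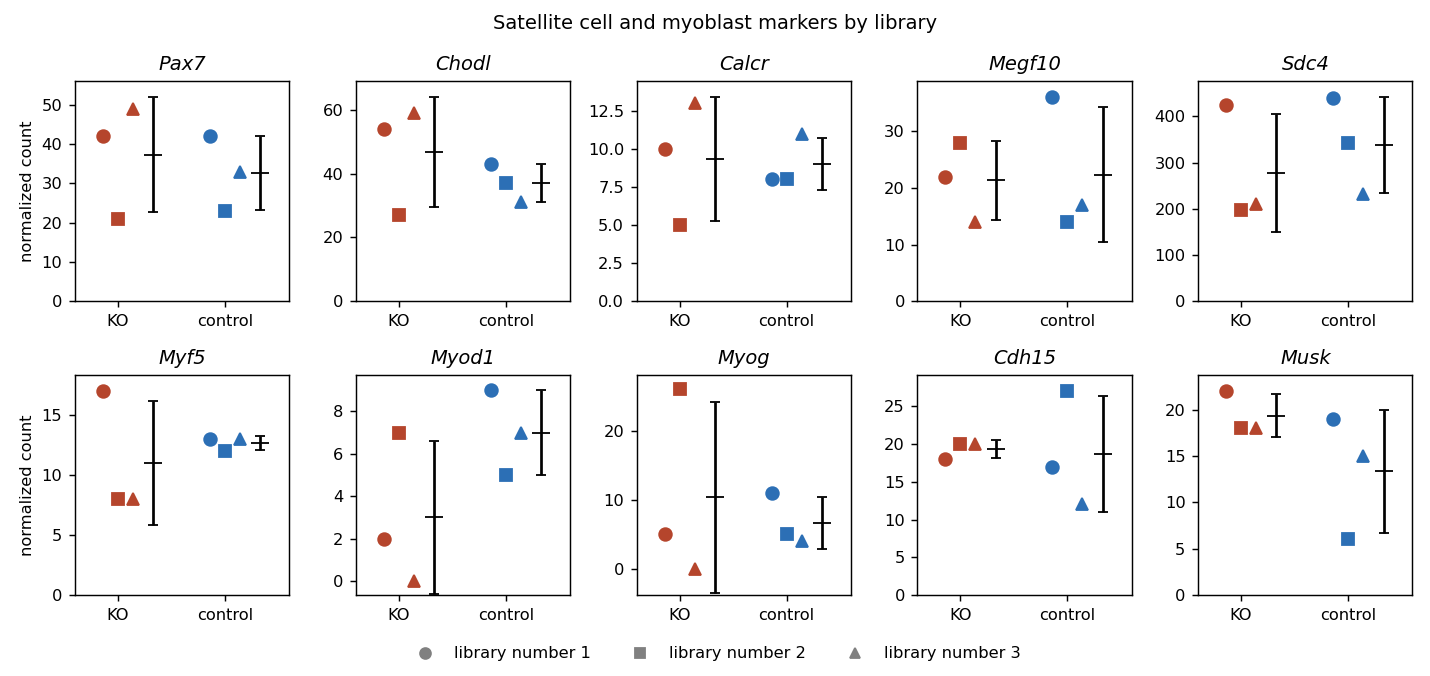
Normalized counts of the 10 members in each KO library (red) and control library (blue), with symbols for the replicate number and black bars for the mean ± SD of 3 libraries. The groups overlap in each panel, and the Myog value of 26 is in KO library 2.

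Spread between libraries of a group exceeded counting for some members and not for others. The chi-square per degree of freedom within groups, which is near 1 when reads vary by counting alone, was 45.0 for Sdc4, 9.30 for Myog, 4.47 for Megf10, 4.45 for Pax7 and 3.70 for Chodl. It was 0.99 to 2.19 for Calcr, Myf5, Cdh15, Musk and Myod1, and these have an estimated 32.7 to 118.7 reads each over all 6 libraries. For the same relative spread this measure grows with the number of reads, an estimated 2008 for Sdc4 and 143 for Megf10. It therefore does not rank the members by relative spread.

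Some genes of early muscle differentiation were, like Myog, highest in KO library 2. Of the 9 genes in that list, 4 passed the filter and 0 passed limma's test, with 1 higher, 3 lower and a median of -0.17 on the log2 scale. The smallest p-values were those of Actc1 (log2 fold change -0.30), Mylpf (-0.26) and Myl4 (-0.08). By library, Tnnt2, for a troponin T of embryonic muscle and heart, was at 4, 27 and 1 in KO libraries and 2, 3 and 8 in control libraries. Tnni1, for the slow troponin I, was at 2, 16 and 6 in KO and 2, 3 and 3 in control libraries. From the endplate list, Chrna1, for an acetylcholine receptor subunit, was at 2, 16 and 0 in KO and 3, 3 and 4 in control libraries. KO library 2 was at least 2.36 times the next highest library in each of Myog, Tnnt2, Tnni1 and Chrna1. Mymk, the gene of the fusion protein myomaker, was at 0, 4 and 0 in KO and 2, 1 and 1 in control libraries, too few to read. Other genes of the list did not follow: embryonic myosin Myh3 was at 6 in KO library 2 against 15 in control library 3, its highest value, and Actc1 at 56 in KO library 2 against 73 in control library 2. Myh8, Tnnc1, Mylpf and Ckm were also highest in control library 3, and Myl4 in KO library 2. The whole list summed to 518 in KO library 2 and to 515 in control library 3. The genes given here by library were singled out after their values were seen.

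KO library 2 also stood apart in 15 cell cycle genes, a list added after the values were seen. The list summed to 198, 1524 and 230 in KO libraries 1, 2 and 3 and to 450, 298 and 262 in control libraries 1, 2 and 3. Mki67, the proliferation marker, was at 71, 552 and 90 in KO and 185, 85 and 80 in control libraries, and the mitotic kinase gene Aurkb was at 0, 27 and 4 in KO and 5, 5 and 3 in control libraries. In 13 of the 15, KO library 2 was at least 2 times the next highest library, against 194 (1.34%) of the 14470 genes that reached 10 in any library. The same held for control library 3 in 230 (1.59%) of those genes. With limma 11 of the 15 were tested and 0 passed. Myf5 and Pax7 were not raised in that library, at 8 and 21. Whether the same cells carried the cell cycle and the Myog reads cannot be told from bulk RNA and was not tested.

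**Figure D4:**
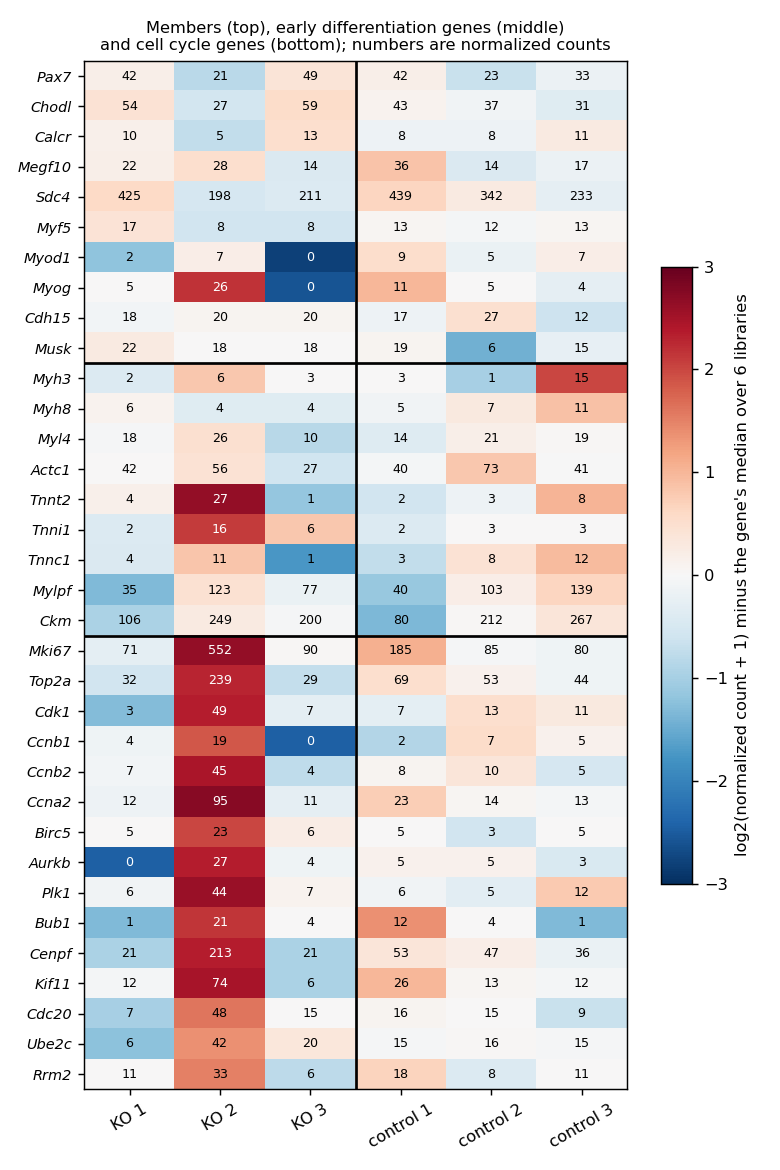
Normalized counts (printed) of the members, the early differentiation genes and the cell cycle genes in each library, coloured by log2(value + 1) minus the median of the gene over the 6 libraries. KO library 2 is red for Myog, Tnnt2, Tnni1 and the cell cycle genes, and not for Pax7, Chodl or Calcr.

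Other satellite cell genes outside the 10 showed no common direction. Of 20 listed, 18 were tested, 7 higher and 11 lower in KO, and the median was -0.08 with 0 passing. The smallest p belonged to Met, the receptor for hepatocyte growth factor, which activates satellite cells. Met was at 26, 19 and 39 in KO libraries and 14, 14 and 12 in control libraries, so every KO library was above every control (log2 fold change 0.96, standard error 0.33, adjusted p = 0.999 with limma). Fgfr4, a fibroblast growth factor receptor of muscle, was at 33, 26 and 39 in KO and 21, 27 and 31 in control libraries. Spry1, a feedback inhibitor of receptor tyrosine kinases needed for return to quiescence, was at 258, 405 and 522 in KO and 208, 308 and 401 in control libraries. Spry1 was higher in KO within 3 of 3 replicate numbers (adjusted p = 0.187 with limma and the block). Spry1 and many others of this list are also made by vascular cells, and their level is not a measure of satellite cells. The largest sums over this list were 6143 in KO library 3 and 5907 in control library 3.

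Of 25 transcription factors and partners that act with the myogenic regulatory factors, 20 were tested, 8 higher and 12 lower, with a median of -0.03 and 0 passing. The 3 with the smallest p were the Id genes, whose proteins bind E proteins and keep them from pairing with MYOD1. Id1 was at 69, 58 and 62 in KO libraries and 77, 113 and 74 in control libraries, lower in every KO library (log2 fold change -0.45, standard error 0.20, adjusted p = 0.999 with limma). Id2 was at 162, 74 and 66 in KO and 160, 159 and 125 in control libraries, and Id3 was at 242, 195 and 186 in KO and 299, 252 and 226 in control libraries. Both overlapped between groups, while within the replicate numbers Id1 and Id3 were lower in KO in 3 of 3 and Id2 in 2 of 3. With the block their adjusted p-values with limma were 0.445 for Id1, 0.292 for Id2 and 0.275 for Id3. The homeobox gene Pitx3 stayed at or under 5 in all libraries, while Mef2c, which encodes a MEF2 factor, was at 566 to 892 in KO and 633 to 857 in control libraries.

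Fusion and endplate genes give the surroundings of Myog and Musk. Of 11 fusion genes 10 were listed and 8 tested, 7 higher and 1 lower in KO, with a median of 0.16 and 0 passing. The smallest p belonged to Kirrel, Myof and Cdh2, of which Cdh2, for N-cadherin, was at 131, 272 and 274 in KO and 114, 173 and 224 in control libraries, higher in KO within 3 of 3 replicate numbers. Of 12 endplate genes 6 were tested, 5 higher and 1 lower, with a median of 0.22 and 0 passing. Chrnb1, an acetylcholine receptor subunit, was at 22, 16 and 25 in KO and 23, 12 and 12 in control libraries. Ache, for acetylcholinesterase, was at 52, 112 and 158 in KO and 55, 74 and 84 in control libraries. Lrp4, the agrin co-receptor that acts with MuSK, was at 152, 273 and 352 in KO and 137, 184 and 334 in control libraries, also higher within 3 of 3. Dok7, for the cytoplasmic activator of MuSK, was at 2, 6 and 3 in KO and 8, 7 and 8 in control libraries, below every control in each KO library, but its mean of 5.67 kept it from the test and it was singled out after its values were seen. Chrnd, Chrne, Chrng and Colq, the subunits and collagen tail of the muscle endplate, stayed at or under 5 in all libraries.

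Relatives of Calcr and Megf10 ranged from near 0 to levels far above these members. Calcrl, the receptor for adrenomedullin and calcitonin gene-related peptide, was at 310, 206 and 195 in KO and 314, 263 and 206 in control libraries. Its accessory protein gene Ramp1 was at 132, 82 and 87 in KO and 138, 147 and 97 in control libraries. Ramp2 was at 10, 33 and 24 in KO and 17, 44 and 23 in control libraries, and Ramp3 was at or under 5 in all. The 3 tested genes of this family had lower KO means on the log2 scale and 0 passed. Megf9 stood at 74 to 137 in KO and 98 to 155 in control libraries. Megf6 reached at most 9 in any library and Megf11 at most 3.

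As a sum, the members other than Sdc4 varied less across libraries than the fibre transcripts did. Single members varied more than their sum, such as Musk from 6 to 22 and Megf10 from 14 to 36. The fibre gene Acta1 ranged from 202 to 488. Summed over the 9, the members were at 192, 160 and 181 in KO libraries 1, 2 and 3 and at 198, 137 and 143 in control libraries 1, 2 and 3, a range of 1.45 times from lowest to highest library. The 18 fibre markers summed to 2538, 5246 and 9765 in KO and to 1862, 3020 and 4470 in control libraries, a range of 5.24 times, and of 3.04 times without Ttn, the gene of the giant protein titin. Control library 1 thus had the highest member sum and the lowest fibre sum. KO library 3, with the highest fibre sum, had a member sum of 181. It had 0 for Myod1 and Myog, with the counting limits given above. The highest values of Pax7 (49), Chodl (59) and Calcr (13) were also in KO library 3. Of the 18 fibre markers 16 were higher and 2 lower in KO, with a median of 0.25 and 0 passing. The smallest p-values were those of Ttn (log2 fold change 1.72), Ryr1 (1.50) and Neb (1.11), and the first 2 had an unadjusted p under 0.05 (adjusted p = 0.999 with limma). Ttn was at 660, 1638 and 5386 in KO and at 422, 442 and 868 in control libraries, highest in KO library 3. Endothelial markers summed to 296 to 546 in KO and 251 to 456 in control libraries, fibroblast markers to 2794 to 4866 in KO and 3381 to 4975 in control libraries, and Schwann cell markers to 358 to 612 in KO and 418 to 597 in control libraries. Pericyte markers summed to 10875 to 18088 in KO and 10197 to 15680 in control libraries. On the log2 scale 10 of 10 endothelial and 8 of 8 pericyte markers were higher in KO, 10 of 10 smooth muscle and 8 of 10 fibroblast markers were lower, and 0 passed in any of these lists. Their part in the values of the members was not tested. Schwann cell markers, like Sdc4, had their highest sums in both libraries numbered 1, although Ngfr of that list was lowest there. This was not particular to Schwann cell markers. The smooth muscle gene Myocd was at 571, 272 and 252 in KO and at 619, 493 and 281 in control libraries. The part of either in the values of Sdc4 was not tested.

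**Figure D5:**
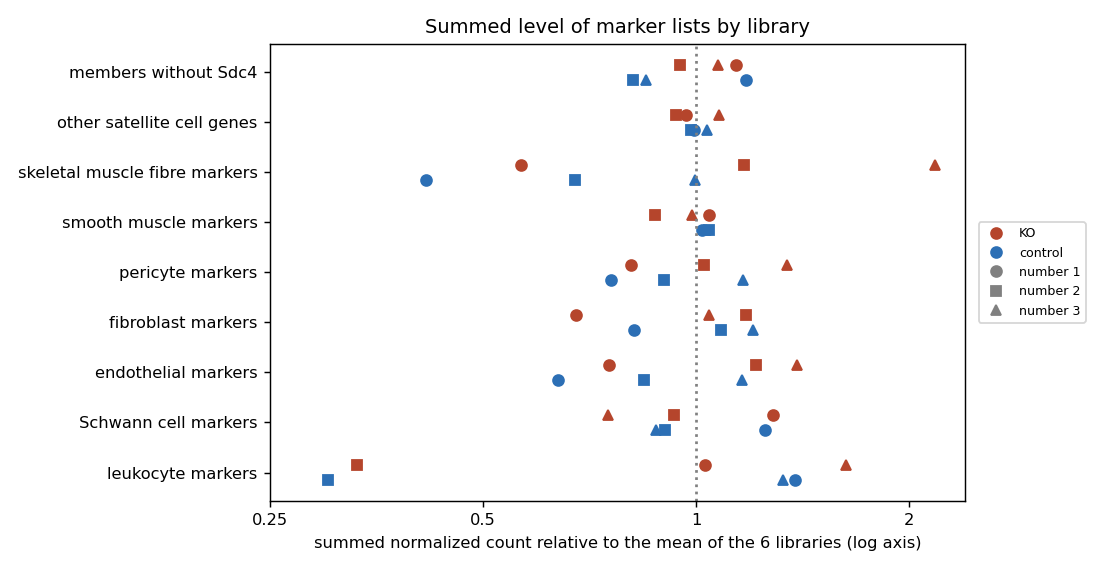
Summed normalized counts of 9 marker lists in each KO (red) and control (blue) library, relative to the mean of the 6 libraries, on a log axis with symbols for the replicate number. The sum of the members without Sdc4 varies less between libraries than the fibre and leukocyte sums.

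The profiles most like those of the remaining tested members came from genes of mixed function. By root-mean-square difference of centred log2 profiles over 6 libraries, Rffl was nearest to Pax7 (0.14), Cdc14b to Myf5 (0.11), Aim2 to Chodl (0.18), Runx1 to Megf10 (0.16), Glrx5 to Cdh15 (0.09) and Hic2 to Musk (0.33). The second nearest were Slc4a8 for Pax7 (0.21), Fam214a for Myf5 (0.14), Nbeal2 for Chodl (0.18), Slc16a3 for Megf10 (0.16), Drd1 for Cdh15 (0.12) and Fancm for Musk (0.33). Runx1, a transcription factor, was at 147, 167 and 69 in KO and 230, 77 and 103 in control libraries, with control library 1 highest as for Megf10. Likeness over 6 libraries is a description only.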

How the data were processed

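The deposited table gives a score, which the authors made from read counts by dividing by 1 factor per library and rounding to whole numbers, as the spacing of low values shows. Per the submitters' processing notes, Trimmomatic 0.39, STAR 2.6.1d, featureCounts 1.6.5 and DESeq2 1.18.1 were used with builds mm10 and GRCm38.p5. Use of strand and removal of duplicates are not given in the sources used here. Per the labels' protocols, libraries were made from 5 ng of total RNA with a stranded low-input kit.

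On log2(value + 1), 2-sided limma tests (version 3.58.1, R 4.3.3) with a trend by intensity covered genes with a mean of at least 10, with Benjamini-Hochberg adjustment over 12735 genes and a threshold of 0.05. Fold changes on that scale understate the change of low genes. P-values measure the spread between these libraries, which may be partly technical. The worth of 1 read was found by a grid search from 0.6 to 2 in steps of 0.0005; whole reads were not recovered in 4 of 6 libraries, where 1 read is worth less than 1, so no count test was run and read numbers with their Poisson intervals are estimates. Within each group, chi-square per degree of freedom between libraries was 3.09 to 10.2, above counting noise. Each library was counted as 1 replicate, although whether each is a different animal is not given. Same-numbered libraries deviated together (correlations over genes of 0.59, 0.31 and 0.44). Of differently numbered libraries, KO library 2 and control library 3 also did (0.16), and the other pairs correlated negatively. Deviations were taken from group means and cancel within a group, so positive values force negative ones elsewhere. The negative values are therefore no separate evidence of pairing. The main tests did not use this pairing. The replicate block, taken from the data and not from a label, was run as an alternative, and values from it are named as such. Exon lengths are from GENCODE vM21, whose span equals the table's for 9 of 10 members and differs for Sdc4. The tests were checked on simulated data.

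The members and the gene lists were chosen with earlier results of these data known. All members are named, and in each muscle list up to 3 tested genes with the smallest p, relatives in the family lists, and the 2 genes with the nearest profile. Genes given for their value in a single library were chosen after seeing the data. Alternatives tried were other pseudocounts, no filter, upper-quartile scaling, no trend, sample quality weights, the replicate block and leaving out libraries. Values of 2 listed genes are not reported here.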

Additional observations from a re-analysis of the deposited data

How the results depend on the processing

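The count of members passing stayed at 0 in all 16 alternatives run. Over all genes the count was 0 in 12 of 16. It was 1 with the replicate block, 2 with sample quality weights, and, in fits chosen after seeing the data, 17 with the block after dropping the pair numbered 1, and 1 after dropping the pair numbered 2. The cause was not tested. The block changed no other call. Sdc4 and Myf5 were lower and Musk higher throughout, at -0.68 to -0.09, -0.60 to -0.08 and 0.18 to 1.25. The direction turned for 6 of 10 members: Pax7, Chodl, Megf10, Cdh15 and the untested Calcr and Myog. Leaving out 1 library gave -0.090 to 0.50 for Pax7, -0.26 to 0.39 for Megf10, -0.14 to 0.41 for Cdh15, 0.059 to 0.61 for Chodl, -0.29 to 0.33 for Calcr, -1.54 to 0.84 for Myog and -2.18 to -0.68 for Myod1. Myog was also higher with a pseudocount of 5 (0.035) and with sample quality weights (0.099). Megf10 was -0.0059 with a pseudocount of 5 and -0.47 with the block minus the pair numbered 2. Sample quality weights gave -0.0093 for Chodl and -0.28 for Cdh15. With the block minus the pair numbered 3, Pax7 was at -0.063, Chodl at -0.059 and Cdh15 at -0.17. The number of genes at an unadjusted p under 0.05 was 230 and ranged from 124 to 2228. Without the filter the median of all genes was -0.14. Precision is lowest for Myod1, Calcr and Myog, each with few reads.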
